A study of Arabidopsis thaliana with 18 samples.

Results

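A set of 177 Arabidopsis thaliana genes had no counted read pair in any dry wild-type seed library and were clearly present after 24 h in water. They were chosen by 2 values of the wild-type libraries: a sum of 0 pairs over the 3 dry libraries, and a mean of at least 3 per 1000000 counted pairs over the 3 imbibed libraries. Of 33602 loci in the files, 12478 had no pair in dry wild type, 2758 of these had at least 1 pair in imbibed wild type, and 184 passed the level. The rule leaves out 7 of these, which gives 177, of which 176 code for proteins and 84 carry a gene symbol. Silence in dry wild type and presence in imbibed wild type are therefore how the genes were selected and not a result. The results concern the other 12 libraries.

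The study measured polyadenylated RNA of whole seeds in 18 libraries, 3 for each of 6 groups, and its title places it in work on the release of dormancy. The groups are wild type, an mpk8 mutant and a tcp14 mutant, each as dry seeds with no treatment and as dormant seeds held for 24 h in the dark on wet filter paper at 25 °C. Plants were grown on soil at 21 °C, both mutants are described as knock outs, and the alleles are not named in the sources used here. Replicates are called biological, and no label says whether they are separate plants or seed lots, so p-values measure the spread between these samples. Libraries held 12170793 to 21233207 counted pairs. MPK8, a mitogen-activated protein kinase, stood at 4.04 ± 0.502 CPM (counts per 1000000; SD, n = 3 here and below) when dry and 4.31 ± 0.397 CPM when imbibed in mpk8 seeds, against 11.4 ± 0.588 and 11.7 ± 0.849 CPM in wild type. TCP14, a transcription factor of the TCP family, went against its label: it stood at 44.0 ± 0.498 CPM when dry and 34.5 ± 3.13 CPM when imbibed in tcp14 libraries, against 6.86 ± 1.39 and 15.7 ± 1.98 CPM in wild type. These libraries are called "labelled tcp14" throughout, and any direction drawn from them refers to the label.

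A dry seed carries transcripts stored during maturation on the mother plant. Water uptake restarts transcription, stored messages are lost, and genes for growth of the embryo are switched on, among them genes of gibberellin synthesis, wall loosening, cuticle formation and DNA replication. In dormant seeds part of this programme is held back although the seed is wet. TCP14 promotes the growth potential of the Arabidopsis embryo in germination.

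In imbibed wild type the 177 genes were mostly of modest level. Per 1000000 counted pairs they ranged from 3.02 to 71.5, with a median of 5.42. Just inside the threshold lay MYBC1 at 3.02, AT5G62340 at 3.10 and AT1G03820 at 3.11, and just outside lay AT1G53180 at 2.999 and AT3G01516 and AT4G33145, both at 2.98. A further 288 loci met the level but had 1 to 3 pairs in dry wild type. All levels below are CPM scaled by the TMM method, which corrects for differences in RNA makeup, and on that scale the median gene stood at 3.42 CPM. Per kilobase of transcript model the levels in imbibed wild type ran from 0.702 to 58.6 CPM, with a median of 2.93. The 10 highest genes held 23.2% of the summed level.

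The genes were also nearly silent in dry seeds of both lines. In dry mpk8 seeds 134 of the 177 had no pair in any library, 37 had 1 to 3 pairs over the 3 libraries and 6 had more, up to 6 pairs. In dry seeds labelled tcp14, 97 had no pair, 72 had 1 to 3 and 8 had more, up to 7 pairs. A count of 0 over a group allows up to 0.0784 CPM in dry mpk8 and 0.0763 CPM in dry tcp14-labelled seeds (3 pairs per group, counting error only). Of all loci without a pair in dry wild type, 90.7% also had none in dry mpk8 and 87.8% had none in dry seeds labelled tcp14. For the 177 genes the shares were 75.7% and 54.8%. Of the 12478 loci without a dry wild-type pair, 2758 had a pair in imbibed wild type, so the shares are not for loci of like level. Counts of single reads were not used for the choice, and 12 of the 177 had at least 1 in dry wild type, 40 reads in all. These counts seem to include both mates of a pair: AT1G12805 had 4411 single reads and 2183 pairs in imbibed wild type.

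The genes with the most pairs in dry seeds of the lines had few there. In dry mpk8 seeds AT2G23360, a filament-like protein, had 3, 0 and 3 pairs and an imbibed level 8.10 times the dry one, and CYP78A5, a cytochrome P450 known for its role in organ and seed size, had 2, 2 and 1. In dry libraries labelled tcp14, AT2G31730, a basic helix-loop-helix (bHLH) protein, had 4, 1 and 2 pairs, and AT2G25480, of the family of the spindle protein TPX2, had 2, 0 and 2. The other genes with the most pairs in the dry lines, the HMG-box protein gene 3xHMG-box2, AT3G09800, AT5G49960, PLA2-ALPHA, AT1G80800, AT4G16140 and AT1G12805, had 4 or 5 pairs in at least 1 of the dry groups. Between the dry lines edgeR's quasi-likelihood test called 1 of the 177 lower in mpk8 (background, 12.3% of the 18061 tested loci) and 0 higher (background 12.7%), and DESeq2 called the same numbers. The gene was AT2G31730 (log2 difference -4.69, SE 1.301, adjusted p = 0.0125 by edgeR), which had no pair in dry mpk8 and lost the call when the first dry library labelled tcp14 was left out. Of the 177, 2 had an unadjusted p under 0.05. The genes were chosen for silence in dry wild type and 83 had no pair in either dry line, so few calls could be made and nothing is read from their number.

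After 24 h in water every one of the 177 genes had pairs in both lines. Imbibed mpk8 libraries held 3670, 3711 and 4085 pairs of these genes, against 27, 28 and 29 in dry mpk8 libraries. Imbibed libraries labelled tcp14 held 10157, 7452 and 5006 pairs, against 52, 47 and 47 when dry. In mpk8, 166 of the 177 were called higher in imbibed than in dry seeds by edgeR at an adjusted p under 0.05 (93.8%; background 44.4%), 0 were called lower by edgeR or DESeq2, and 11 were not called. In the libraries labelled tcp14 all 177 were called higher (100%; background 43.8%), with a highest adjusted p of 0.00359. All 177 passed the filter on low counts, and could do so through imbibed wild type alone. No gene had more than 6 pairs over the dry mpk8 libraries or 7 over the dry ones labelled tcp14. With dry counts this low the direction of a call was nearly fixed, and nothing is read from the absence of calls of lower.

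The sizes of these increases are mostly lower bounds. For a gene without a dry pair, the dry group was set at 3 pairs over its 3 libraries. In mpk8, 132 genes had no dry pair and more than 3 imbibed pairs, and 128 of them had a bound above 1, with a median of at least 8.01-fold and a highest of at least 52.0-fold. In the libraries labelled tcp14, 97 genes had such a bound, from at least 3.59-fold to at least 107-fold, with a median of at least 18.6-fold. With these genes at their bound, the median log2 change of the genes with a fold was 3.14 in mpk8 and 4.47 in the libraries labelled tcp14, against medians of 0.15 and 0.11 over all tested loci. Scaling by library totals in place of TMM moved those medians over all loci to 0.97 and 0.83.

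The genes reached a lower level in both lines than in imbibed wild type. At 24 h the wild-type libraries summed to 1047, 921 and 1064 CPM, the mpk8 libraries to 139, 159 and 193 CPM and those labelled tcp14 to 447, 352 and 277 CPM. The groups did not overlap, with wild type highest and mpk8 lowest. The means were 1011 ± 78.2, 164 ± 27.6 and 358 ± 85.1 CPM (SD, n = 3). The 177 were selected on a high level in wild type, so ratios to it are a description and were given no test.

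**Figure D1:**
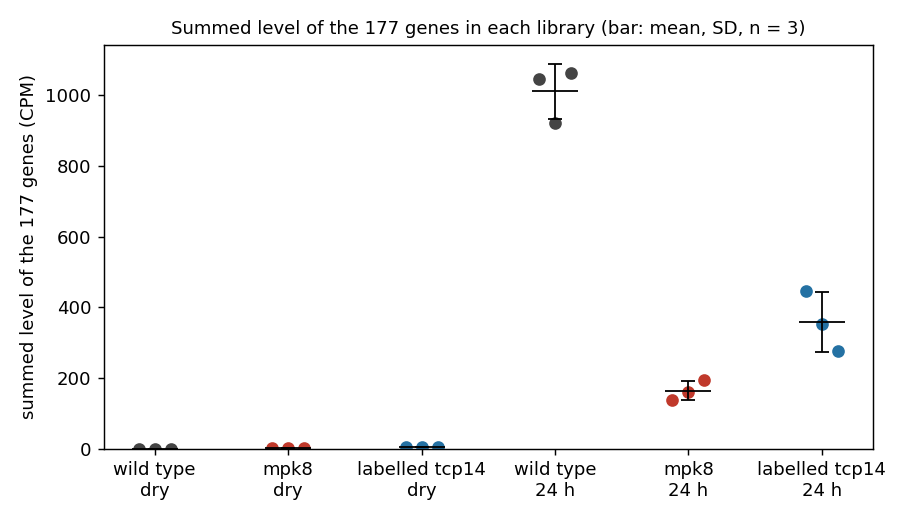
Summed level of the 177 genes in CPM (vertical axis) in each of the 18 libraries (points), with group means and SD (bars, n = 3). All dry groups lie near 0, and at 24 h the wild-type libraries lie between 921 and 1064 CPM, those labelled tcp14 between 277 and 447 and the mpk8 libraries between 139 and 193.

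Gene by gene, the median level in imbibed mpk8 was 11.9% of that in imbibed wild type (quartiles 6.90% and 29.3%), and in libraries labelled tcp14 it was 33.5% (quartiles 26.8% and 45.6%). Over all tested loci the same medians were 103.1% and 99.7%. In mpk8, 73 genes stood under 10% of the wild-type level and 11 at 50% or more, whereas in the libraries labelled tcp14 1 stood under 10% and 33 at 50% or more. Every imbibed mpk8 library lay below every imbibed wild-type library for 170 genes (33.5% of all tested loci do so), and every tcp14-labelled library did for 167 (31.1% of all tested loci). Nothing is read from these counts, since wild-type libraries chose the genes. The 59 genes with the highest wild-type level had medians of 9.75% in mpk8 and 30.5% in the libraries labelled tcp14, and the 59 with the lowest had 15.2% and 36.6%.

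**Figure D2:**
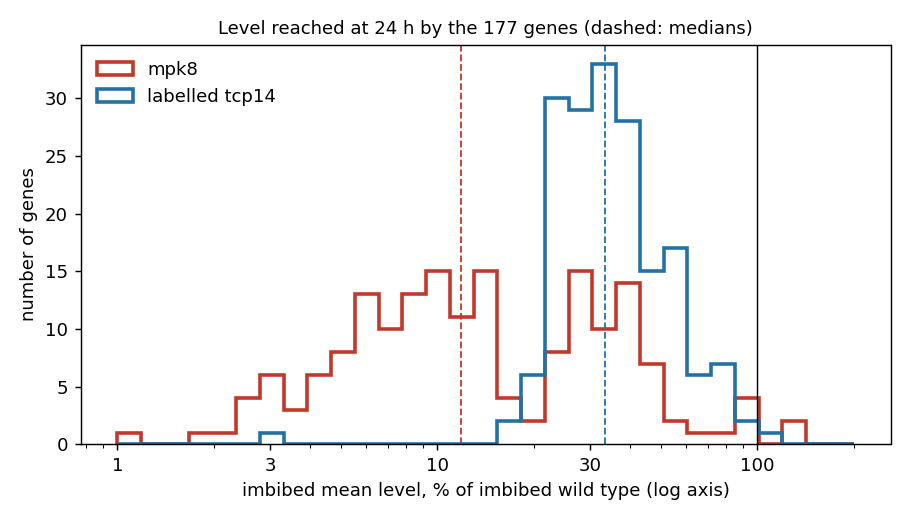
Number of genes (vertical axis) by imbibed mean level in percent of imbibed wild type (horizontal log axis) for mpk8 and for libraries labelled tcp14, with dashed lines at the medians of 11.9% and 33.5% and a black line at 100%. The mpk8 values spread from 1.10% to 129%, and most tcp14-labelled values sit between 10% and 50%.

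Sums of cell type markers also differed between groups at 24 h, though not always in the order of the 177 genes. For the seed and endosperm markers the imbibed ranges of mpk8 and the tcp14 label overlapped. All 10 seed storage and late maturation markers had pairs in every group, and dry libraries summed to 172415 to 185493 CPM for wild type, 165223 to 169346 for mpk8 and 165310 to 189770 for the tcp14 label. After imbibition the sums were 40732 to 49693 CPM for wild type, 101783 to 103309 for mpk8 and 100982 to 145767 for the tcp14 label. The 6 leaf photosynthesis markers were all present at 24 h in wild type, at 278 to 335 CPM, and under the tcp14 label, at 137 to 181 CPM. In mpk8 5 of 6 were present at 24 h, at 76.3 to 84.3 CPM. The dry libraries of all groups together ranged from 13.8 to 21.7 CPM. All 3 endosperm markers were present in every group, and at 24 h held 2769 to 3579 CPM for wild type, 6294 to 7453 for mpk8 and 4762 to 6726 for the tcp14 label, against 22820 to 34593 CPM in dry libraries. The 4 pollen markers held 54.4 to 144 CPM in dry libraries; at 24 h they were at 0 in wild type and under the tcp14 label, and 2 of 4 had pairs in mpk8, with at most 0.0756 CPM. The part of these shifts in the levels of the 177 genes was not tested, and in whole seeds fewer cells of a type and less RNA per cell cannot be told apart.

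The lines were compared with each other at 24 h, where the libraries that chose the genes entered only the shared filter, scaling and estimate of spread. Of the 177, 122 were lower in mpk8 than in the libraries labelled tcp14 by edgeR (68.9%; background 11.6%), 5 were higher (2.82%; background 9.45%) and 50 were not called. A fit of the 12 mutant libraries alone called 108 lower and 2 higher, against 1854 and 1483 of the 18061 tested loci. Of the 122, 112 differed by at least 2-fold and 51 by at least 4-fold. The median log2 difference was -1.44, against 0.01 over all tested loci. Every mpk8 library lay below every tcp14-labelled library for 128 genes (background 17.3%).

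Loci next to the choice were described in the same way. Among the 288 loci with 1 to 3 dry wild-type pairs and the same imbibed level, 58.7% were called lower in imbibed mpk8 than in libraries labelled tcp14 and 2.78% higher, with a median log2 difference of -1.01.

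**Figure D3:**
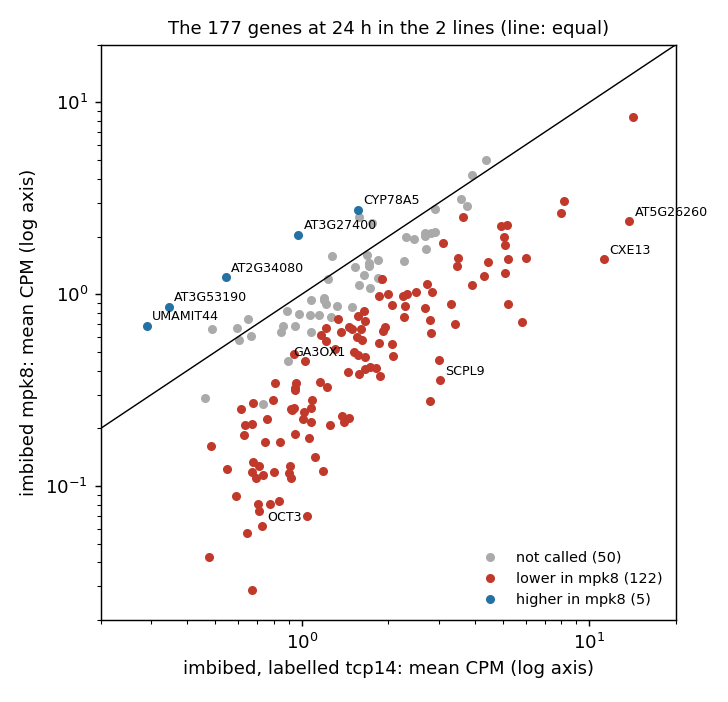
Mean CPM in imbibed mpk8 (vertical log axis) against imbibed libraries labelled tcp14 (horizontal log axis) for the 177 genes, coloured by the call of edgeR's test, with the line of equal levels. The 122 genes called lower in mpk8 lie below the line and the 5 called higher, all named, lie above it.

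The libraries within each line differed in level over many of the genes at once. Of the imbibed libraries labelled tcp14, the first library was the highest for 126 of the 177 genes and the third was the lowest for 132. In imbibed mpk8 the third library was the highest for 113 genes and the first the lowest for 102. Without the first tcp14-labelled library 98 genes were called lower in mpk8, and without the third 128 were. Over all 18061 tested loci the numbers were 1477 and 2398, against 2089 with all libraries.

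Gibberellin synthesis was represented by GA3OX1 and GA3OX2, which make the bioactive form of the hormone in its last synthetic step. GA3OX2 stood at 8.49, 7.81 and 11.4 CPM in imbibed wild type, 0.681, 0.644 and 0.710 CPM in mpk8 and 2.68, 1.94 and 1.22 CPM in libraries labelled tcp14. Its mpk8 libraries all lay below those labelled tcp14, and no dry library of either line had a pair. It rose at least 8.64-fold in mpk8 (adjusted p = 6.2e-05 by edgeR) and at least 26.2-fold in libraries labelled tcp14 (adjusted p = 1.9e-07), and at 24 h was lower in mpk8 by a log2 difference of -1.54 (SE 0.30, adjusted p = 0.00155). GA3OX1 stood at 2.71, 2.85 and 4.004 CPM in imbibed wild type, 0.227, 0.644 and 0.473 CPM in mpk8 and 1.14, 0.661 and 0.885 CPM in libraries labelled tcp14. Its mpk8 libraries all lay below those labelled tcp14, the nearest at 0.644 against 0.661 CPM, and the difference did not pass (log2 -1.02, SE 0.39, adjusted p = 0.0678 by edgeR), although it did without the second imbibed mpk8 library or with no filter on low counts. It rose in both lines, with 1 pair in dry mpk8 and a ratio there of 16.7 (95% exact counting interval 2.79 to 682).

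The set held 5 genes of the SAUR family, small auxin-responsive genes linked to cell expansion. All 5 rose in both lines and were lower in imbibed mpk8 than in libraries labelled tcp14. Their median levels were 6.86% and 41.2% of imbibed wild type in the 2 lines. AT4G34790 stood at 7.39, 6.18 and 7.75 CPM in wild type, 0.302, 0.429 and 0.521 CPM in mpk8 and 2.29, 1.56 and 1.33 CPM in libraries labelled tcp14. Its neighbour on chromosome 4, AT4G34800, is also of the 177 and differed between the lines by log2 -2.32 (SE 0.45, adjusted p = 9.2e-04 by edgeR). AT4G31320 differed by -2.56 (SE 0.41, adjusted p = 2.4e-04 by edgeR). AT4G34760 reached 83.2% of the wild-type level in libraries labelled tcp14 and 34.3% in mpk8. SAUR genes are a multigene family, and pairs that fitted several places equally well were not counted.

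Regulators of light and shade responses numbered 6 bHLH and phytochrome signalling genes. All 6 rose in both lines, and 4 of 6 were lower in mpk8 than in libraries labelled tcp14. HEC1 and HEC2, bHLH proteins that act against the germination repressor PIF1, stood at 8.18% and 11.2% of imbibed wild type in mpk8 and at 24.8% and 33.5% in libraries labelled tcp14. PAR1 and PAR2, atypical bHLH proteins named for their rapid response to phytochrome, stood apart from each other: PAR2 reached 11.02% and 31.0% of wild type in the 2 lines and PAR1 50.3% and 79.3%, and for PAR1 the lines did not differ past the threshold (adjusted p = 0.0586 by edgeR), and did with the third imbibed library labelled tcp14 left out or with no filter on low counts. FHL, which carries phytochrome A into the nucleus, stood at 3.58, 3.69 and 2.82 CPM in imbibed wild type, 3.25, 3.22 and 2.89 CPM in mpk8 and 3.52, 3.87 and 3.32 CPM in libraries labelled tcp14. Wild type overlapped both lines, and the mpk8 libraries all lay just below those labelled tcp14, a difference that did not pass (log2 -0.19, SE 0.18, adjusted p = 0.492 by edgeR). FHL rose at least 40.0-fold in mpk8 (adjusted p = 1.1e-10 by edgeR), from no pair in dry seeds.

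**Figure D4:**
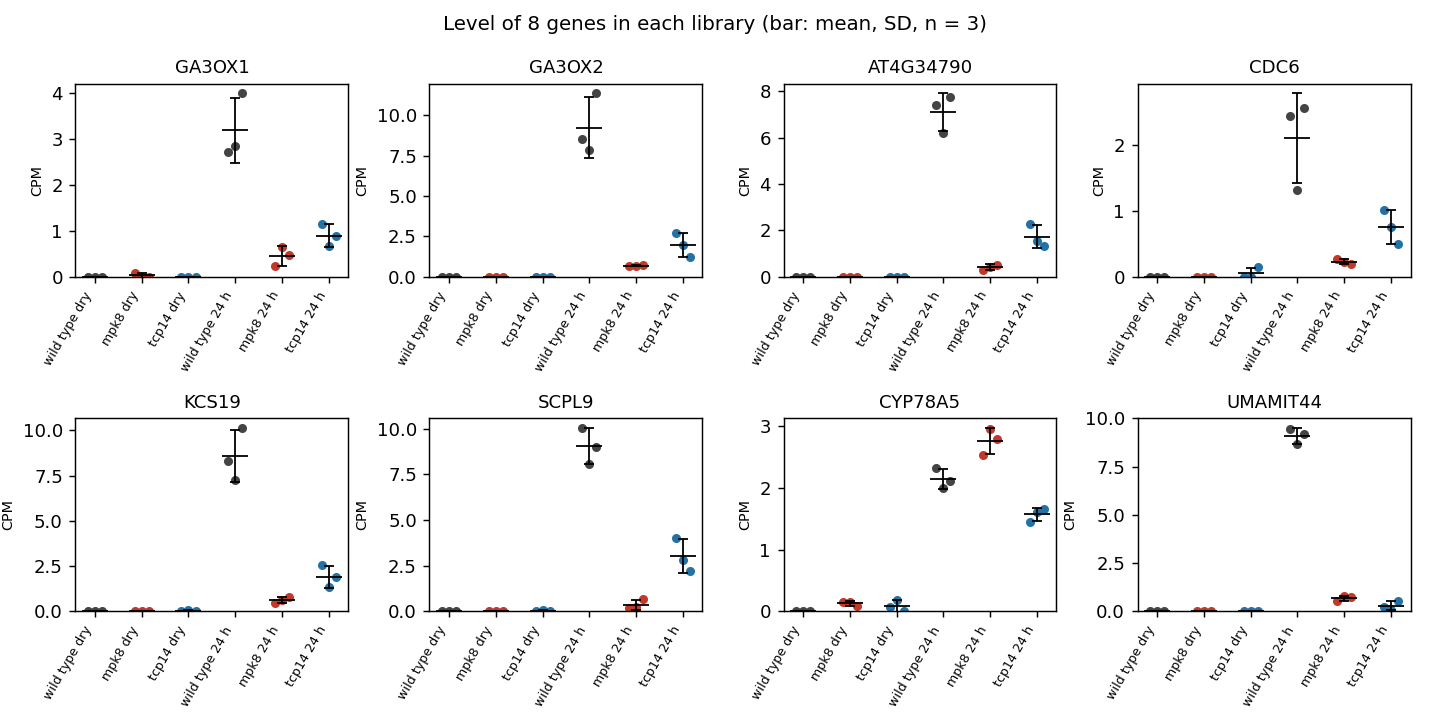
CPM (vertical axis, from 0) of 8 genes in each library (points) of the 6 groups, with mean and SD (bars, n = 3). GA3OX1, GA3OX2, AT4G34790, CDC6, KCS19 and SCPL9 have, among the 3 imbibed groups, the highest mean in wild type and the lowest in mpk8, CYP78A5 has the highest in mpk8, and UMAMIT44 the lowest in libraries labelled tcp14.

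Genes of DNA replication, repair and chromatin numbered 9. Of these, 8 rose in mpk8 and all 9 in libraries labelled tcp14, and 6 were lower in imbibed mpk8 than in libraries labelled tcp14. CDT1A and CDC6 load the replicative helicase at origins. CDT1A stood at 7.27, 6.54 and 8.12 CPM in imbibed wild type, 0.756, 0.773 and 1.42 CPM in mpk8 and 2.99, 1.94 and 1.82 CPM in libraries labelled tcp14. The lines did not overlap and differed by log2 -1.23 (SE 0.27, adjusted p = 0.00286 by edgeR). CDC6 differed by -1.74 (SE 0.47, adjusted p = 0.0124 by edgeR), and the call was lost without the first imbibed library labelled tcp14. ATXR6, a histone methyltransferase of replicating chromatin, had 4, 1 and 4 pairs in imbibed mpk8 and 1 pair in dry mpk8, and its increase there was not called (adjusted p = 0.131 by edgeR) unless scaled by library totals. In imbibed libraries labelled tcp14 it had 28, 21 and 9 pairs, and the lines differed at 24 h by log2 -2.80 (SE 0.50, adjusted p = 3.6e-04 by edgeR). BARD1, a DNA repair protein, stood at 9.24% of wild type in mpk8 and 32.7% in libraries labelled tcp14.

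Letters bound by E2F factors, which drive genes of DNA synthesis, were searched on both strands from 250 bases before to 50 after the gene start in the TAIR10.1 annotation of RefSeq. Either of TTTCCCGC and TTTGGCGC was present for 6 of 176 promoters of the set (3.41%) and for 1.21% of all 26699 promoters of protein-coding genes (1.36% of those of tested loci). These 6 were AT1G20720, RECQI1, AT3G60660, TCX2, ATXR6 and ATIM, and 5 of them are among the 9 replication, repair and chromatin genes. A match is a description and not a binding site. The 5 stretches lying before the gene start are shown, each with 1 match in capitals (on the strand of the gene, 5′ to 3′), because these genes are named here for replication and repair: the helicase genes AT1G20720 (chr1:7192844-7192911 and, overlapping it, chr1:7192880-7192947, minus strand) and RECQI1 (chr3:1698035-1698078, plus strand), TCX2 of the CXC protein family (chr4:8484977-8485038, minus strand) and ATIM, related to the replication fork protein Timeless (chr5:21463328-21463372, minus strand).
AT1G20720: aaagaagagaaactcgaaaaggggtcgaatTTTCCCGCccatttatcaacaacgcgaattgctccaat
AT1G20720, second match: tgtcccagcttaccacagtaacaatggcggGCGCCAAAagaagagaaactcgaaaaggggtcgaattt
RECQI1: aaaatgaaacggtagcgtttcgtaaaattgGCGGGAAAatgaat
TCX2: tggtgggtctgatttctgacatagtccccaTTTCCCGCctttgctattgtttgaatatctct
ATIM: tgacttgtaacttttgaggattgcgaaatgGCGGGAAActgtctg
The annotated start may not be the one used in seeds, since the length of the authors' gene model equals that of a TAIR10.1 transcript for 15 of the 177 genes. ATIM stood at 15.1% of imbibed wild type in mpk8 and 39.3% in libraries labelled tcp14, RECQI1 at 27.4% and 46.2%, AT1G20720 at 19.1% and 36.6%, and TCX2 at 31.8% and 28.5%.

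The genes without a role group numbered 75, more than any role group held, and summed to 478 CPM in imbibed wild type. Of these 75, 49 were lower and 0 higher in imbibed mpk8 than in libraries labelled tcp14. The largest role group after transcription factors was that of fatty acid, cuticle and lipase genes, 13 in all. All 13 rose in both lines, and 12 of 13 were lower in imbibed mpk8 than in libraries labelled tcp14, with a median log2 difference of -2.04. Their median levels were 6.90% and 26.7% of imbibed wild type in the 2 lines. KCS19, an enzyme of the family that elongates very long chain fatty acids, stood at 8.34, 7.28 and 10.2 CPM in wild type, 0.492, 0.644 and 0.805 CPM in mpk8 and 2.55, 1.32 and 1.88 CPM in libraries labelled tcp14. The lines did not overlap and differed by log2 -1.59 (SE 0.30, adjusted p = 7.9e-04 by edgeR). The fatty acid desaturase genes ADS1, ADS4 and AT1G06360 stood at 5.77% to 9.66% of wild type in mpk8 and at 23.7% to 36.8% in libraries labelled tcp14, and ADS4 and AT1G06360 are neighbours on chromosome 1.

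Within the same group, cytochromes P450 were among the lowest in mpk8. CYP96A3 differed between the lines by log2 -2.31 (SE 0.34, adjusted p = 1.2e-04 by edgeR), and CYP77B1 by -2.11 (SE 0.44, adjusted p = 0.0022). CYP96A8 had 2, 1 and 5 pairs in imbibed mpk8 and 28, 13 and 10 in libraries labelled tcp14. Its increase in mpk8 passed narrowly (adjusted p = 0.0389 by edgeR) and was lost on leaving out the third imbibed mpk8 library or any dry mpk8 library, and in fits of the 12 mutant libraries and of the compared groups alone. KCS11 was the exception to the difference between lines (log2 -0.23, SE 0.30, adjusted p = 0.649 by edgeR).

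Enzymes of wall glucans, xyloglucan, xylan and mannan, with 1 expansin, numbered 10. All 10 rose in both lines and 8 were lower in imbibed mpk8. GH9B1, an endoglucanase, stood at 11.4, 9.13 and 14.1 CPM in wild type, 0.907, 1.29 and 1.18 CPM in mpk8 and 3.83, 2.27 and 2.10 CPM in libraries labelled tcp14. XTH17 and XTH24 cut and rejoin xyloglucan. XTH17 was lower in mpk8 by log2 -2.93 (SE 0.45, adjusted p = 1.6e-04 by edgeR), whereas XTH24 did not pass (-0.07, SE 0.47, adjusted p = 0.939) and had 5, 25 and 10 pairs in the 3 mpk8 libraries. EXPA14, a wall-loosening expansin, differed by -1.71 (SE 0.39, adjusted p = 0.00429 by edgeR), and AGAL2, an alpha-galactosidase whose gene overlaps one on the other strand, by -1.94 (SE 0.28, adjusted p = 4.3e-05).

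Pectin enzymes and inhibitors were more varied. Of 9, 8 rose in mpk8 and 9 in libraries labelled tcp14; at 24 h 6 were lower and 2 higher in mpk8. AT3G15720, a pectin lyase-like protein, stood at 16.2, 16.8 and 19.1 CPM in wild type, 1.29, 1.202 and 2.08 CPM in mpk8 and 9.23, 4.01 and 2.43 CPM in libraries labelled tcp14, where the first library lay far above the third. AT5G48900 had 3, 2 and 3 pairs in imbibed mpk8 and 24, 9 and 13 in libraries labelled tcp14 (log2 -2.64, SE 0.47, adjusted p = 7.0e-04 by edgeR). AT1G67750, a pectate lyase, stood at 7.57% and 22.7% of wild type in the 2 lines. PME1, annotated as a pectin methylesterase inhibitor and overlapping a gene on the other strand, reached 82.7% of the wild-type level in libraries labelled tcp14 and 35.4% in mpk8.

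Cell surface genes, 6 in all, included the fasciclin-like arabinogalactan proteins FLA2 and FLA9. FLA2 stood at 15.02, 11.6 and 13.9 CPM in wild type, 0.643, 0.472 and 0.994 CPM in mpk8 and 4.44, 3.12 and 2.71 CPM in libraries labelled tcp14. FLA2 was lower in mpk8 by log2 -2.31 (SE 0.26, adjusted p = 6.8e-06 by edgeR) and FLA9 by -2.16 (SE 0.32, adjusted p = 6.6e-05). The SKU5-related gene sks16 had 4, 1 and 1 pairs in imbibed mpk8, and its increase there was not called (adjusted p = 0.083 by edgeR) unless scaled by library totals.

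Of 12 protease and carboxypeptidase genes, 11 rose in mpk8, and at 24 h 8 were lower and 1 higher in mpk8 than in libraries labelled tcp14. SCPL9, a serine carboxypeptidase-like protein, stood at 10.07, 8.08 and 9.01 CPM in wild type, 0.189, 0.215 and 0.663 CPM in mpk8 and 4.05, 2.83 and 2.21 CPM in libraries labelled tcp14. The lines differed by log2 -3.14 (SE 0.35, adjusted p = 2.1e-06 by edgeR). SCPL34 differed by -2.68 (SE 0.41, adjusted p = 1.6e-04 by edgeR), and the papain family gene AT1G29080 by -3.35 (SE 0.35, adjusted p = 1.1e-06). SCPL45, in contrast, was at 30.3% of wild type in mpk8 and 24.6% in libraries labelled tcp14, and the lines did not differ past the threshold (adjusted p = 0.457 by edgeR).

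Among 16 other transcription factors, 15 rose in mpk8 and 12 were lower there at 24 h. The highest in wild type was NAI1, a bHLH factor of endoplasmic reticulum bodies, at 14.5, 12.03 and 15.8 CPM, against 1.51, 2.02 and 2.46 CPM in mpk8 and 6.33, 5.38 and 3.43 CPM in libraries labelled tcp14. BGLU22, a beta-glucosidase of the family found in such bodies, differed between the lines by log2 -2.58 (SE 0.28, adjusted p = 1.4e-06 by edgeR) and NAI1 by -1.37 (SE 0.22, adjusted p = 3.0e-04). SHR, a regulator of root patterning, stood at 37.2% and 53.6% of wild type and differed by -0.54 (SE 0.17, adjusted p = 0.0312 by edgeR), a call that was not made by DESeq2 or in fits of the 12 mutant libraries or the compared groups alone, and was lost without the first or second imbibed library of either line. NTL8, a membrane-bound NAC factor linked to germination under salt, reached 90.2% of wild type in libraries labelled tcp14 and 39.9% in mpk8. LATE, a zinc finger protein, had 2, 3 and 1 pairs in imbibed mpk8 against 24, 13 and 15 in libraries labelled tcp14, and its increase in mpk8 was not called (adjusted p = 0.0596 by edgeR), although it was in the fit of the 12 mutant libraries, with no filter on low counts, with library totals and with a replicate block.

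**Figure D5:**
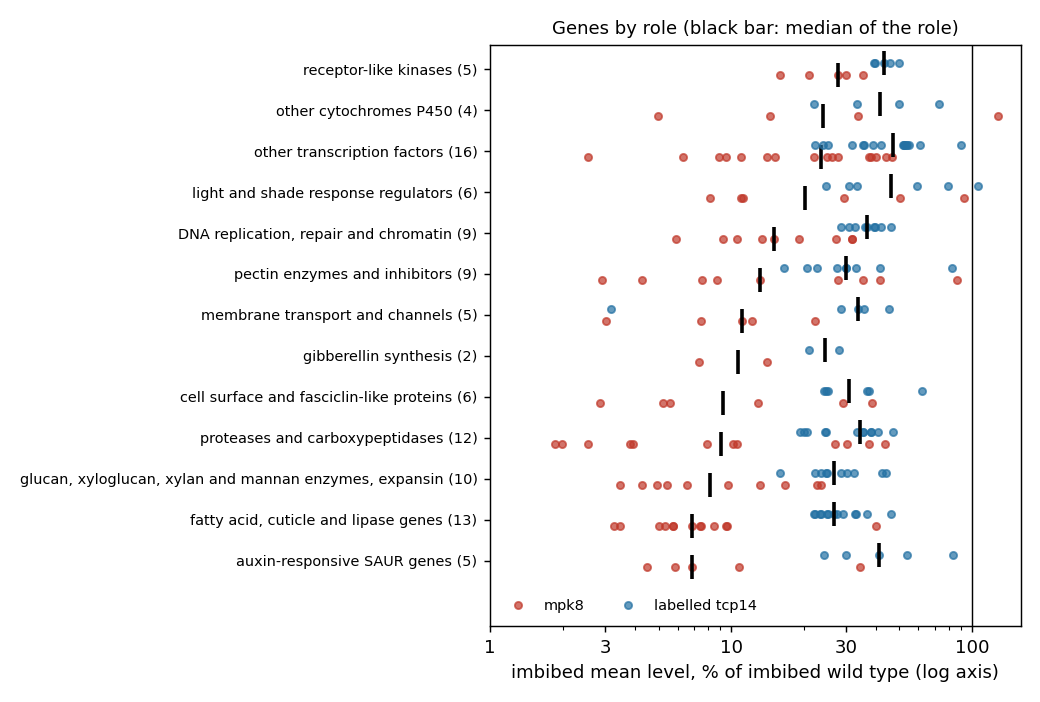
Imbibed level in percent of imbibed wild type (horizontal log axis) of each gene with a role (points) in mpk8 and in libraries labelled tcp14. Role groups are on the vertical axis (number of genes in brackets), with the median of each group (black bars). The 75 genes without a role group are not shown. Medians in mpk8 run from 6.86% for the SAUR genes to 27.8% for receptor-like kinases, and each group's median is higher in libraries labelled tcp14.

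Receptor-like kinases had the median difference between the lines nearest to 0 of the role groups, at log2 -0.72. All 5 rose in both, 2 were lower in mpk8 at 24 h, and their median levels were 27.8% and 43.0% of wild type. The leucine-rich repeat kinase AT5G48940 was lower in mpk8 by log2 -1.12 (SE 0.17, adjusted p = 1.2e-04 by edgeR). Of 5 transport genes, OPT7, an oligopeptide transporter, did not differ past the threshold (log2 -0.38, SE 0.21, adjusted p = 0.222 by edgeR) unless the third imbibed library labelled tcp14 was left out. OCT3, an organic cation transporter, had 0, 1 and 3 pairs in imbibed mpk8 against 23, 19 and 5 in libraries labelled tcp14 (log2 -3.57, SE 0.69, adjusted p = 0.00122 by edgeR).

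Several of the highest genes of the set have no symbol. AT5G26260, a TRAF-like protein, led with 50.7, 40.4 and 44.4 CPM in imbibed wild type. It stood at 1.93, 2.32 and 2.98 CPM in mpk8 and 18.9, 12.7 and 9.79 CPM in libraries labelled tcp14. The lines did not overlap (log2 -2.54, SE 0.21, adjusted p = 4.7e-08 by edgeR). A relative, AT3G20370, stood at 10.2% and 30.5% of wild type. AT4G29690, of the alkaline phosphatase-like family, stood at 3.30% of wild type in mpk8 and 26.7% in libraries labelled tcp14 (lines, log2 -3.04, SE 0.23, adjusted p = 5.5e-08 by edgeR). AT2G45180, of the lipid-transfer protein superfamily, stood at 5.53% and 21.8%, and AT1G12805 at 27.5% and 46.3%. AT5G64100, a peroxidase, was at 13.9% and 18.7% and did not differ between the lines past the threshold (adjusted p = 0.206 by edgeR) unless the third imbibed library labelled tcp14 was left out.

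The 11 genes whose increase in mpk8 was not called had between 2 and 14 pairs over the 3 imbibed mpk8 libraries. They were AT1G08160, OCT3, CYP705A13, AT2G20835, sks16, AT2G27420, ATXR6, AT5G48110, LATE, AT5G60520 and AT5G62340, with adjusted p of 0.0596 to 0.266 by edgeR. All 11 were called higher in imbibed libraries labelled tcp14 and all 11 were lower in imbibed mpk8 than there, although CYP705A13 lost that call without the first or second imbibed mpk8 library or the first labelled tcp14, or in a fit of the compared groups alone. AT5G60520, annotated as similar to late embryogenesis abundant proteins, had 0, 2 and 0 pairs in imbibed mpk8, 21, 9 and 12 in libraries labelled tcp14 and 66, 57 and 60 in wild type. For some of the 11, but not for all, the missing call depended on the setting. Scaled by library totals, which raised the median of all loci as given above, 174 of the 177 were called higher in imbibed mpk8, as were 12242 of the 18061 tested loci. The increase of CYP705A13 was also called by DESeq2, with no filter on low counts and without the first imbibed mpk8 library.

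The 5 genes called higher went the other way at 24 h. UMAMIT44, of a family of amino acid exporters, had the lowest share of wild type in libraries labelled tcp14: it stood at 9.48, 8.66 and 9.19 CPM in wild type, 0.529, 0.773 and 0.758 CPM in mpk8 and 0.220, 0.0944 and 0.553 CPM in libraries labelled tcp14. The lines overlapped; the difference passed with log2 1.28 (SE 0.42, adjusted p = 0.0387 by edgeR), and did not without the second or the third mpk8 library or the first or second labelled tcp14, nor in fits of the 12 mutant libraries or of the compared groups alone. CYP78A5 stood at 2.53, 2.96 and 2.79 CPM in mpk8, above all wild-type libraries (2.32, 2.01 and 2.11 CPM) and all libraries labelled tcp14 (1.45, 1.61 and 1.66 CPM), and differed between the lines by log2 0.81 (SE 0.20, adjusted p = 0.00531 by edgeR). The others were the papain-like gene AT2G34080 (log2 1.15, SE 0.30, adjusted p = 0.0097 by edgeR) and the pectin lyase-like genes AT3G27400 (1.02, SE 0.34, adjusted p = 0.036) and AT3G53190 (1.24, SE 0.41, adjusted p = 0.0429). The count of 5 fell to 2 without the second or the third imbibed mpk8 library or the second imbibed library labelled tcp14, and to 3 without the third of the latter. Over all tested loci 1707 were called higher, and 1374, 1361, 1348 and 2037 in those fits, in that order.

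A few genes came on to nearly the wild-type level in both lines. Besides FHL these were PLA2-ALPHA, a secreted phospholipase, at 96.2% of wild type in mpk8 and 84.5% in libraries labelled tcp14, and CHAL, a signalling peptide of stomatal patterning, at 75.7% and 91.8%. The lines did not differ past the threshold for either (adjusted p = 0.525 and 0.464 by edgeR). AT1G03820, just inside the threshold of choice, stood at 129% of wild type in mpk8 and 80.5% in libraries labelled tcp14, with an adjusted p of 0.0779 between the lines by edgeR. Its mpk8 libraries (1.85, 2.23 and 3.50 CPM) overlapped those of wild type (1.97, 2.27 and 1.67 CPM), and only the third mpk8 library lay above them all. MEE16, a RING/U-box protein, stood lower, at 56.7% and 58.4%, with no difference between the lines past the threshold (log2 -0.03, SE 0.29, adjusted p = 0.959 by edgeR).

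Families as wholes give the background of these genes. Of 33 XTH loci, 12 had no pair in dry wild type and 2 are in the set; of 19 tested, 12 were lower and 0 higher in imbibed mpk8 than in libraries labelled tcp14 by edgeR. Of 38 expansin loci, 16 had no dry wild-type pair and 1 is in the set; of 18 tested, 9 were lower and 3 higher in mpk8. Of 280 loci of lipid transfer, cuticle and GDSL lipase genes, 146 had no dry pair and 7 are in the set; of 111 tested, 36 were lower and 8 higher. Of 199 replication and cell cycle loci, 33 had no dry pair and 3 are in the set, 1 of them AT1G74940, a DUF581 protein whose annotation names a cyclin-dependent kinase; of 157 tested, 35 were lower and 12 higher. Transcription factors (1542 loci, 16 in the set) were lower for 93 and higher for 102 of 932 tested. Kinases (1371 loci, 8 in the set) were lower for 94 and higher for 94 of 975 tested. Transporters (500 loci, 3 in the set) were lower for 35 and higher for 43 of 319 tested. Over all tested loci 11.6% were lower and 9.45% higher, and the transcription factor and kinase counts lie near these shares. No histone, cytoskeleton or cellulose and callose synthesis gene of the lists is in the set. The 7 loci that the rule leaves out passed both values and are not counted in the set. The counts and absences given here hold only without them, and an absence does not mean that no gene of a list passed.

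Letters bound by class I TCP factors, the class that includes TCP14, were searched in the same promoters. GTGGGNCC was present in 6 of 176 promoters of the set (3.41%) and in 1.34% of all promoters (1.65% of those of tested loci). Of the 6, 5 lie before the gene start and are shown, with the letters in capitals on the strand of the gene, because the libraries labelled tcp14 are compared here: AT1G67750 (chr1:25401470-25401513, plus strand), AT1G74940 (chr1:28145772-28145839, plus strand), AT2G27420 (chr2:11727679-11727746, minus strand), AT4G34790 (chr4:16594114-16594181, plus strand) and FHL (chr5:437184-437251, plus strand).
AT1G67750: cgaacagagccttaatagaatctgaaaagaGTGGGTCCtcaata
AT1G74940: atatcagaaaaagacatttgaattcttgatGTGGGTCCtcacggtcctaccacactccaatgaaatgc
AT2G27420: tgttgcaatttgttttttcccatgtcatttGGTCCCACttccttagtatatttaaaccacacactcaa
AT4G34790: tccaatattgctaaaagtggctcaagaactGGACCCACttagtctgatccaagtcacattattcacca
FHL: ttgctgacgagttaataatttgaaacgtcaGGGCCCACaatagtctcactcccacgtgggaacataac
In imbibed libraries labelled tcp14 these genes stood at 22.7%, 60.4%, 20.7%, 24.3% and 106% of wild type, in that order. The sixth gene, the pectin methylesterase gene ATPMEPCRB, has the letters after its start. The shorter site II letters TGGGCC and TGGGCT, of which the first overlaps GTGGGNCC where N is C, were present in 11.9% of promoters of the set and 22.0% of all promoters. The abscisic acid response letters ACGTGTC and ACGTGGC were present in 3.98% and 7.77%, the RY letters CATGCA of seed maturation genes in 14.8% and 9.78%, and the gibberellin response letters TAACAAA in 17.6% and 18.5%. TATAAA was present in 56.3% and 52.6%. In all, 17 spellings were searched. Of the rest, AAACCCTA (telo box) was present in 3.41% and 6.165%, CACGTG (G-box) in 6.25% and 7.79% and CNTAACGG (mitosis-specific) in 0.568% and 1.26%. TAAATGTA or TAAATGCA (L1 box) was present in 5.11% and 5.13%, and CGTGTG or CGTGCG (brassinosteroid) in 8.52% and 8.18%.

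Genes of the set were found on all 5 chromosomes, with 47, 30, 27, 31 and 42 on chromosomes 1 to 5. Of the 177, 14 formed 7 pairs of direct neighbours, among them the SAUR pair, the desaturase pair, the papain-like genes AT1G29080 and AT1G29090, the aspartyl protease genes AT5G19100 and AT5G19110, and LATE with AT5G48900. Their transcript models had a median length of 1263 bases, against 1537 for all tested loci. For 32 of the 177 another gene overlaps on the other strand, and since the counting is not stated to use strand, their pairs cannot be told apart from those of the partner. Of the genes named here this holds for CDC6, RECQI1, TCX2, 3xHMG-box2, KCS11, AGAL2, PME1, SCPL45, AT2G34080, AT2G23360, AT3G09800 and AT5G60520.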

How the data were processed

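Counts of read pairs per transcript model were deposited for each library; per the file headers, the authors counted properly paired reads on 1 transcript model per locus, took out reads whose best and next hit scored the same, and listed single reads as separate counts; libraries are stranded and polyA selected, per the labels' protocols, and whether counting used strand is not given in the sources used here. Reads were mapped with TopHat2 and Bowtie2, per the submitters' processing notes, without versions. Pairs of 33602 loci were used as deposited.

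edgeR's filterByExpr over the 6 groups kept 18061 loci, which were fitted in edgeR 4.0.16 (quasi-likelihood test, TMM, 1 mean per group over 18 libraries; R 4.3.3). Calls are Benjamini-Hochberg adjusted p under 0.05 over all tested loci, and the script was tested on simulated data. CPM values use TMM factors, which ran from 0.707 to 0.777 when dry and, at 24 h, from 1.56 to 1.60 for wild type, 1.25 to 1.26 for mpk8 and 1.16 to 1.33 for the tcp14 label. SE are the log2 difference divided by the root of F. Intervals and floors (3 pairs per group) cover counting error only. Alternatives were DESeq2 1.42.0, other scalings and filters, other fits, a replicate block, other thresholds of choice and each library left out.

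The genes and lists were chosen with earlier results of these data known, and role groups were drawn up from annotations after values were seen. Named by rule were the highest genes overall and of each family, the largest differences between lines, the highest and lowest ratios to wild type, the most pairs in dry lines and the genes at the threshold; others named are exceptions, promoter matches or role examples chosen after their values were seen. Symbols and promoter sequences came from RefSeq's TAIR10.1, which holds all 177 loci; the files name TAIR10, and coordinates are those of TAIR10.1.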

Additional observations from a re-analysis of the deposited data

Results flagged for a closer look

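Counts of single reads in dry wild type, which no comparison uses, were above 3 for 3 of the 177 genes. That limit was set for pairs and not for single reads. ZFP4, a zinc finger protein, had 7 single reads over the 3 dry wild-type libraries, AT2G25480, of the TPX2 family, had 9, and AT4G22235, a defensin-like gene that overlaps AT4G22233 on the other strand, had 13. None of the 3 had a read pair there. In imbibed wild type they stood at 2.33, 5.64 and 4.98 CPM.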

How the results depend on the processing

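The number of genes in the set depends on the thresholds: 465 with up to 3 dry wild-type pairs, 419 at a level of 1 per 1000000 or more, 44 at 10 or more, 171 to 231 with 1 wild-type library left out and 165 when single reads in dry wild type were also not allowed (chosen after seeing the data). Genes called higher on imbibition ranged from 88.7% to 93.8% in mpk8 and stayed at 100% in libraries labelled tcp14 with 1 library left out. Between the lines at 24 h, 55.4% to 72.3% were called lower in mpk8 with 1 library left out, and 45.6% of the 417 tested genes of the set at 1 per 1000000. The share called higher was 1.13% in the fit of the 12 mutant libraries and in that of the compared groups alone, 1.69% by DESeq2, and 1.13% to 3.39% with 1 library left out. With 1 library left out, 1423 to 2398 of all 18061 tested loci were called lower in this comparison and 1122 to 2037 higher. Between the dry lines the share called lower was 0% to 1.13% with 1 library left out and 0% for the set at 10 per 1000000. No gene named by the rule reversed direction; of its values under alternatives, 41 lost a call and 18 gained one, and the cause was not tested.

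Replicate numbers did not pair the samples: correlations of same-numbered deviations ran from -0.245 to 0.158. With a replicate block, 93.2% rose in mpk8 and 100% in libraries labelled tcp14; between lines at 24 h 68.9% were lower and 2.26% higher in mpk8. Low counts limit the calls for genes with few pairs in imbibed mpk8, although that group was sequenced deepest of the imbibed ones. It held 56439349 counted pairs in sum, against 45038920 for wild type and 49268200 for the tcp14 label. The 3 imbibed libraries labelled tcp14 differ more from each other than those of other groups.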
